A study of Sus scrofa with 3 samples.

Results

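The miR-374a, miR-374b, miR-421 and miR-545 hairpins lie together on the pig X chromosome, and their levels are described here in developing liver. The members were selected by name from the hairpins assigned to known miRNAs of pig or other mammals, and reads were summed per hairpin and arm. This gave 4 of 677 hairpin names, with 8 mature arms read, of 990 mature miRNAs with a read. They were chosen because linked hairpins had read ratios of opposite sign between stages, so those ratios are a description and carry no test. Of the 8 arms, 5 reached a mean of 10 counts per 1000000 miRNA reads (CPM) over the libraries, as did 326 miRNAs in all. The other 3 (miR-374b-3p, miR-421-5p and miR-545-5p) are given by their levels and enter no count of called arms that uses this filter.

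Liver of male Jinhua pigs was sampled at embryonic day 90 (E90), postnatal day 30 (P30d, labelled as weaning) and postnatal year 7 (P7y, labelled as adult), with no treatment or genetic change named in the labels, and small RNA was sequenced. Per the labels each stage had 3 pigs but a single library, and whether their RNA was pooled was not given. With no replicates, every comparison sets libraries against each other and not stages, and no p-value is given. Intervals are 95% and cover counting error only. PCR copies of a molecule are not independent, so the intervals may be too narrow even for that. In the order E90, P30d and P7y, which is used for every set of 3 values below, the libraries held 9243627, 3623022 and 9920229 miRNA reads, and the hepatocyte miRNA miR-122-5p made up 12.8%, 21.4% and 3.79% of them.

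A miRNA is cut from a hairpin precursor, and the strand loaded into an Argonaute protein pairs with target mRNAs mainly through its seed, bases 2 to 8. Hairpins that lie close together are often cut from 1 primary transcript. In human and mouse, members of this family are hosted by FTX, a long noncoding RNA gene near XIST in the X-inactivation centre. All animals here were male, so each carries a single X chromosome. In RefSeq's annotation of Sscrofa11.1 all 4 hairpins were matched by symbol, and all lie within the span of a single long noncoding RNA gene, LOC102165633; their place relative to its exons was not analysed here.

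The genomic hairpins are shown because their order and likeness frame every comparison below. Each is printed 5′ to 3′ on the minus strand of chromosome X in Sscrofa10.2, with T for U, and capitals mark the pig mature arms of miRBase, 5p before 3p. They are listed in the direction of transcription.
miR-374a, chrX:67530361-67530471: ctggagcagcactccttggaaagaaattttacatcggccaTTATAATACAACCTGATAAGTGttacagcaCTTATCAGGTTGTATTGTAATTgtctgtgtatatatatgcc
miR-545, chrX:67530183-67530288: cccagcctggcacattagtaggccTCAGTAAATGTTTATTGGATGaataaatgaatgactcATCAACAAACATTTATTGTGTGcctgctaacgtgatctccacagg
miR-374b, chrX:67425175-67425278: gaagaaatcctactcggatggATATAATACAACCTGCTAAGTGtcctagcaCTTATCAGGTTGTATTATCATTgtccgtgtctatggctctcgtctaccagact
miR-421, chrX:67425023-67425135: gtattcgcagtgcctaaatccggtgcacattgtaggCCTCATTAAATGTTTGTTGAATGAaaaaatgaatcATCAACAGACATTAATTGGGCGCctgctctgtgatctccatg

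The hairpins form 2 tight pairs with the same order, a miR-374 hairpin followed by a miR-421 or miR-545 hairpin. Between the miR-374a and miR-545 hairpins lay 72 bases, and between miR-374b and miR-421 lay 39 bases, while 104904 bases separated the pairs. No other named miRNA hairpin in the tables lay within 100 kb. In global alignments with free end gaps, the miR-374a and miR-374b hairpins were identical at 73 of 89 aligned bases (82.0%), and the miR-421 and miR-545 hairpins at 84 of 98 (85.7%). Each pair therefore holds a near copy of each hairpin of the other.

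The mature arms with the most reads are printed with the seed in capitals, to show which members share a seed.
miR-374a-5p: tTATAATAcaacctgataagtg
miR-374b-5p: aTATAATAcaacctgctaagtg
miR-374a-3p: cTTATCAGgttgtattgtaatt
miR-421-3p: aTCAACAGacattaattgggcgc
miR-545-3p: aTCAACAAacatttattgtgtg
miR-374a-5p and miR-374b-5p had the same seed, TATAATA, and no other name in the tables had it. They differed by T1A and A16C (the miR-374a base first, positions counted from the 5′ end), and neither position lies in the seed. Their 3p arms shared the seed TTATCAG and differed by G17A and A19C. The seeds of miR-421-3p (TCAACAG) and miR-545-3p (TCAACAA) were not identical, and each was found in no other name. The authors divided a read that fits several hairpins among them, and such reads can arise between the miR-374 5p arms. Of miR-374a-5p reads, 561.5 of 5598.5 had a mismatch at E90, and 3.11% and 15.0% in the later libraries. For miR-374b-5p the shares were 10.6%, 5.90% and 2.42%, and how many reads were divided is not given.

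The miR-374a hairpin was by far the most read of the 4 at P30d, and its 5p arm was the most abundant member arm in every library. miR-374a-5p, reported to repress inhibitors of Wnt signalling in human cancer cells, stood at 606 CPM (counting interval 590.0 to 622), 6539 (6456 to 6623) and 410.1 (398 to 423). Among all miRNAs it ranked 96th, 26th and 75th. Its other arm, miR-374a-3p, stood at 68.2, 916 and 177 CPM, so that E90 was its lowest library while P7y was the lowest for the 5p arm. miR-545-3p, the leading arm of the hairpin next to miR-374a, stood at 12.8 CPM (10.6 to 15.3), 158 and 3.43 (2.37 to 4.79). All 3 arms of this pair were thus highest at P30d in CPM, in values that the members were chosen on.

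The other pair had another order. miR-374b-5p, with the seed of miR-374a-5p, stood at 417 CPM (403 to 429.9), 201 (187 to 216) and 97.9 (91.8 to 104). miR-421-3p, reported to repress the DNA damage kinase ATM in human cells, stood at 355 CPM (343 to 367), 43.6 (37.1 to 51.0) and 11.7 (9.66 to 14.0). Both were highest at E90 and lowest at P7y in CPM. For miR-374b-5p the order of P30d and P7y depended on the scaling, as given below. At E90 the levels of miR-374a-5p, miR-374b-5p and miR-421-3p lay between 355 and 606 CPM, and at P30d between 43.6 and 6539. In bulk liver, fewer cells of a type and less RNA per cell cannot be told apart for any of these levels.

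**Figure D1:**
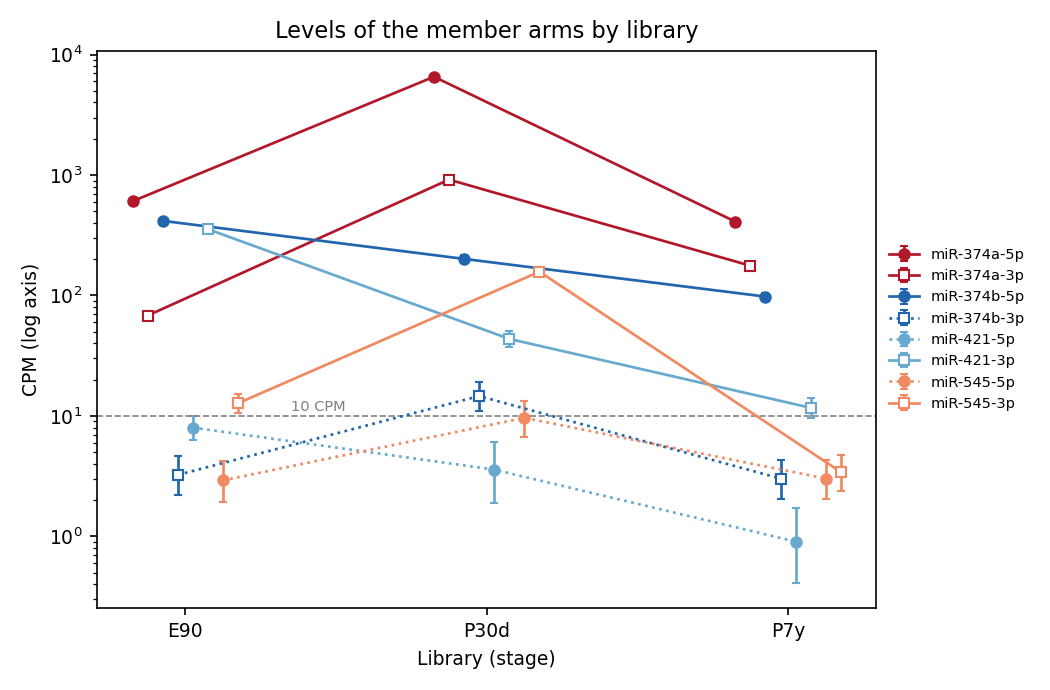
CPM of each member arm (y axis, logarithmic) in the E90, P30d and P7y libraries (x axis), with bars for the exact Poisson 95% counting interval; filled circles are 5p arms, open squares 3p arms, and dotted lines the 3 arms below a mean of 10 CPM. miR-374a-5p peaks at 6539 CPM at P30d, while miR-374b-5p and miR-421-3p are highest at E90.

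Of the 3 arms below the filter, miR-374b-3p had 30, 53 and 30 reads, which is 3.25, 14.6 and 3.02 CPM. The 5p side of miR-421 had 74, 13 and 9 reads, and that of miR-545 had 27, 35 and 30. The highest level of miR-374b-3p was at P30d, where that of miR-374b-5p was at E90, on counts that are small in each library.

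Across birth, from E90 to P30d, the pairs parted. An arm was called where its log2 ratio of CPM was 1 or more in size, which is 2-fold, and its interval did not hold 0. Of the 5 arms, 3 were higher at P30d and 2 were lower by this rule, and of all 326 miRNAs 33.4% were higher and 35.3% lower. The members were chosen on this contrast, so nothing is read from these counts. Here and below, miR-545-3p is counted although it passed the filter mainly through its P30d level (12.8, 158 and 3.43 CPM). The log2 ratio of CPM was 3.43 for miR-374a-5p (interval 3.39 to 3.47), 3.75 for miR-374a-3p (3.62 to 3.87) and 3.63 for miR-545-3p (3.34 to 3.92), which are 10.8-fold, 13.4-fold and 12.3-fold. By contrast it was -1.05 for miR-374b-5p (-1.17 to -0.94) and -3.03 for miR-421-3p (-3.26 to -2.79), or 2.07-fold and 8.14-fold lower. miR-374b-5p lay at the edge of the 2-fold rule, and counting its representative read alone took it to -0.50, which no longer passes. Without mismatched reads the ratio was 2.88 (2.55 to 3.22) for miR-545-3p and -3.98 (-4.33 to -3.64) for miR-421-3p, and with representative reads alone miR-421-3p stood at -3.67. Their directions and calls were the same, but each of these values differs by over 1.5 times in fold from the first count. The representative reads of miR-421-3p and miR-545-3p at P30d differ in sequence from those of the other libraries. Here and below, values of these arms and their hairpins from representative reads that involve P30d thus set different variants beside each other. The representative read of miR-374b-5p was the same in all libraries. The median of all miRNAs was -0.11, and TMM scaling moved the ratios by -0.07.

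The choice of scaling mattered from P30d to P7y. With CPM the median log2 ratio of the 326 miRNAs was -1.36, and it shifted by 1.09 with TMM factors and by 1.04 with DESeq2 size factors, so each arm is also given relative to that median. Under CPM all 5 arms were lower at P7y and 0 higher, against 55.8% lower and 13.5% higher among all miRNAs; under TMM 3 of 5 were lower and 0 higher, against 33.4% and 27.6%. The 3 were the arms of the pair that peaked at P30d. The members were chosen on ratios between these libraries, and a fall from P30d follows from a peak there. Nothing is read from these counts. Relative to the median, miR-545-3p stood at -4.17 (log2 ratio under CPM -5.52), miR-374a-5p at -2.64 (-4.00) and miR-374a-3p at -1.02 (-2.37). miR-421-3p stood at -0.54 relative to the median (-1.90 under CPM). miR-374b-5p stood at 0.32 (-1.04 under CPM), and its sign turned with scaling, at 0.055 under TMM. Without mismatched reads the CPM ratios of miR-545-3p and miR-421-3p were -4.87 and -1.24, and with representative reads alone -4.83 and -1.28, while that of miR-374b-5p was then -1.64.

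Between E90 and P7y the median was -1.06, and the shifts by TMM and DESeq2 factors were 1.03 and 1.05. Here 1 of 5 arms was higher and 3 were lower under CPM, against 12.0% higher and 50.6% lower among all miRNAs. Under TMM 1 of 5 was higher and 2 were lower, against 27.6% and 33.4%. Nothing is read from these counts, as the members were chosen on ratios between these libraries. miR-421-3p had the lowest ratio of the members, at -4.92 under CPM and -3.86 relative to the median, 30.4-fold lower in CPM, which ranked 22nd from the lowest of the 326 miRNAs. miR-374b-5p stood at -2.09 and -1.03 relative to the median, and miR-545-3p at -1.90 and -0.83, which does not pass the 2-fold rule under TMM. miR-374a-3p was the arm higher at P7y, at 1.37 under CPM and 2.44 relative to the median. For miR-374a-5p the value was -0.56 with CPM and 0.46 with TMM, and neither met the rule.

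**Figure D2:**
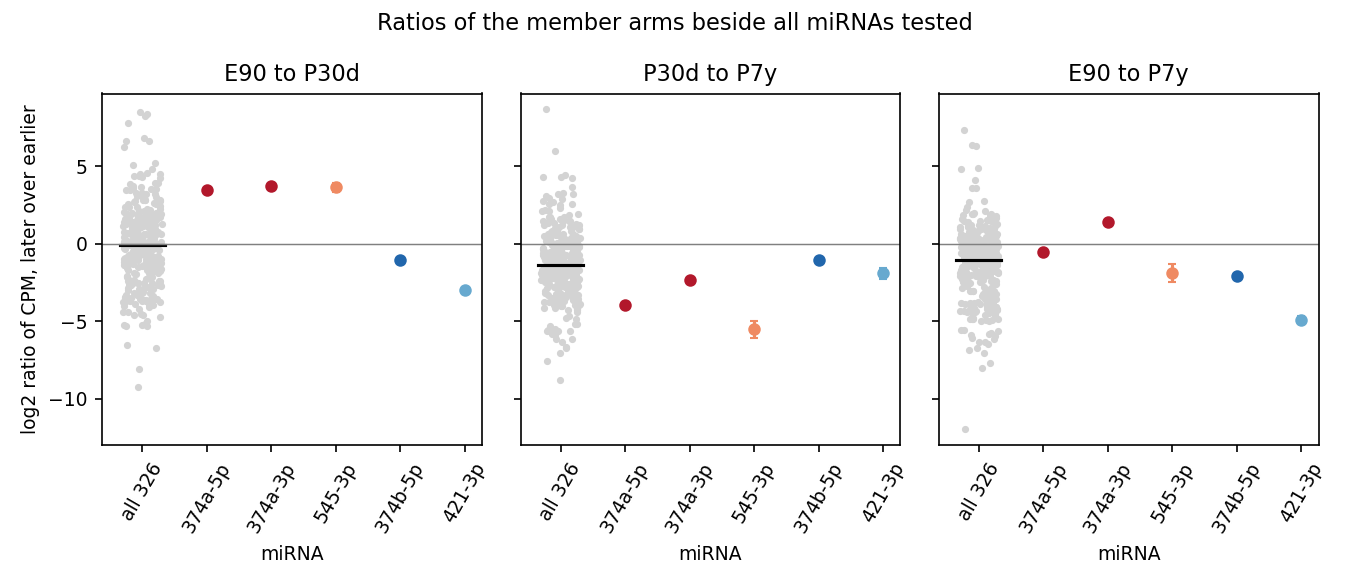
log2 ratio of CPM, later over earlier (y axis), for the 3 pairs of libraries; grey points are all 326 miRNAs past the filter with their median as a black line, and coloured points are the 5 member arms with exact conditional 95% intervals. In the first panel the miR-374a and miR-545 arms lie between 3.43 and 3.75 and the miR-374b and miR-421 arms at -1.05 and -3.03.

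Reads of linked hairpins within a library can be compared without any scaling. The miR-374a hairpin had 43.0, 44.6 and 90.9 reads for each read of miR-545. Its log2 balance over miR-545 moved by 0.053 (-0.22 to 0.32) from E90 to P30d, an interval that holds 0, and by 0.78 (0.47 to 1.09), off 0, without mismatched reads. In CPM the miR-374a hairpin went from 674 to 7455 CPM and miR-545 from 15.7 to 167. From P30d to P7y that balance moved by 1.03 (0.65 to 1.43), and by 1.53 (1.03 to 2.07) with the more abundant arm only. It was 0.39 (-0.047 to 0.85) without mismatched reads and -0.40 (-0.91 to 0.14) with representative reads alone. The miR-374b hairpin had 1.16, 4.57 and 8.01 reads for each read of miR-421. That balance moved by 1.98 (1.73 to 2.24) from E90 to P30d and by 2.79 (2.51 to 3.08) from E90 to P7y, so miR-421 was a smaller part of its pair in both later libraries. The first of these was 2.81 (2.47 to 3.15) without mismatched reads and 3.12 with representative reads alone.

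Between the pairs the shifts were larger. miR-374a had 1.61, 34.5 and 5.81 reads for each read of miR-374b, and miR-545 had 0.0432, 3.54 and 0.512 for each read of miR-421. Their log2 moved across birth by 4.43 (4.31 to 4.55) and 6.36 (6.01 to 6.71). The miR-374a and miR-545 hairpins together held 46.8%, 96.7% and 83.9% of all reads of the 4 hairpins.

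As a description of the same libraries, 35 pairs of hairpins under 1 kb apart on a single strand had both leading arms past the filter, and their log2 ratios differed by a median of 1.60 from E90 to P30d. miR-374a-5p and miR-545-3p differed by 0.19, with 32 pairs farther apart, and miR-374b-5p and miR-421-3p by 1.98, with 12 farther apart. The later comparisons had another order. From P30d to P7y miR-374a-5p and miR-545-3p differed by 1.53 and miR-374b-5p and miR-421-3p by 0.86, both below the median of 2.24, with 22 and 26 pairs farther apart. Between E90 and P7y they differed by 1.33 and 2.84, with 11 and 1 pairs farther apart and an interquartile range over the pairs of 0.63 to 1.40. These pairs share libraries, and the set was chosen after the members' values were seen.

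**Figure D3:**
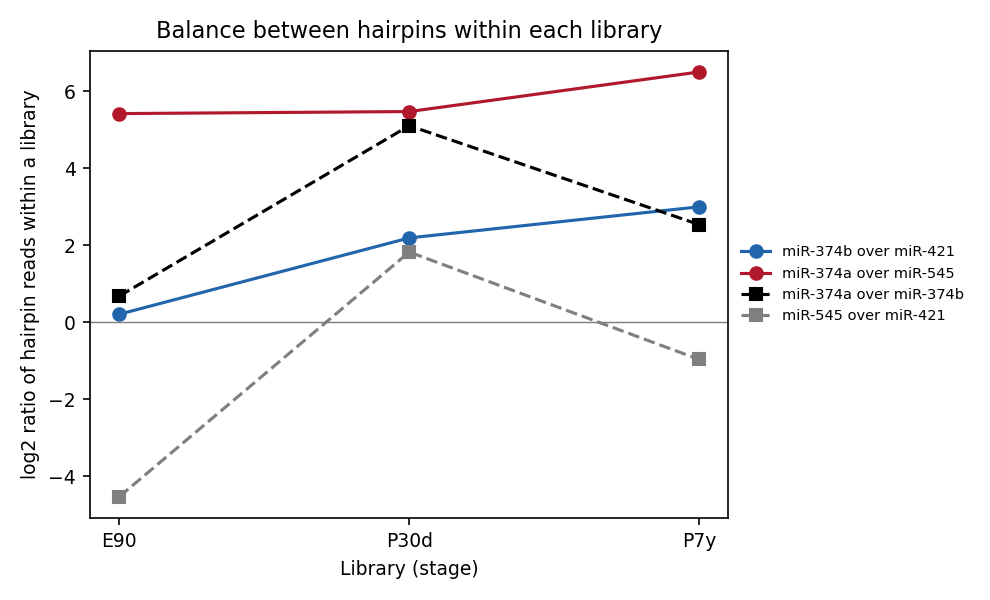
log2 of the reads of a hairpin over those of another in the same library (y axis) at E90, P30d and P7y (x axis); solid lines join hairpins of a tight pair and dashed lines hairpins of different pairs. With all reads counted miR-374a over miR-545 goes from 43.0 to 44.6 reads per read from E90 to P30d, while miR-374a over miR-374b goes from 1.61 to 34.5.

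The miRBase seed TATAATA belongs to both 5p arms, so the summed level of the 5p arms mixes opposite ratios. That sum stood at 1022, 6740.2 and 508 CPM. miR-374a-5p made up 59.3% of it (58.3 to 60.2, Clopper-Pearson), 97.0% (96.8 to 97.2) and 80.7% (79.6 to 81.8). At E90 the 5p arm reads were thus shared between the hairpins, and at P30d nearly all of them came from miR-374a. These are shares of arm reads. The representative reads, which have the seed TATAATA, held 70.9%, 89.3% and 69.2% of miR-374a-5p reads. For miR-374b-5p they held 48.3%, 74.2% and 44.7%, and the seed of the other reads is not given. As a description chosen after these values were seen, the log2 ratios from E90 to P30d of the miR-374 5p arms differed by 4.48, and of 147 other pairs past the filter whose representative reads share a seed 13 differed by more; the median over all such pairs was 1.51. Of reads of the 3p arms, whose miRBase seed is TTATCAG, miR-374a held 95.5%, 98.4% and 98.3%. These are shares of arm reads and not of reads with that seed. The representative read of miR-374b-3p had TTATCAG at P30d only. At bases 2 to 8 it had CTTATCA at E90 and TATCAGG at P7y, with 10 copies of 30 reads in each.

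Arm use differed between the hairpins. The 5p side held 89.9%, 87.7% and 69.9% (68.7 to 71.1) of miR-374a reads, and 99.2%, 93.2% and 97.0% of miR-374b reads. The log2 balance of miR-374a arms moved by -0.32 (-0.45 to -0.18) from E90 to P30d and by -1.62 (-1.72 to -1.52) from P30d to P7y, so its 3p arm was a larger part of the hairpin at P7y. That of miR-374b moved by -3.22 (-3.93 to -2.54) and 1.23 (0.54 to 1.95), resting on 30 to 53 reads of the 3p arm. Over the 179 hairpins that had 50 reads or more in every library, the median size of such a change was 1.90 from E90 to P30d and 2.05 from P30d to P7y. miR-421 was read mainly from its 3p side, with 2.21%, 7.60% and 7.20% of reads on the 5p side. For miR-545 the 5p side held 18.6%, 5.78% and 46.9%, the last from 64 reads with an interval of 34.3 to 59.8.

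For miR-421 and miR-545 the 5p side was not always the mature 5p arm. The reads shown here are the representative ones, 1 per arm and library in the tables, with bases 2 to 8 in capitals.
miR-421 5p side, E90: tCCGGTGCacattgtaggc
miR-421 5p side, P7y: aTGAAATGtttgttgaa
miR-545 5p side, E90: cCTGGCACattagtaggc
miR-545 5p side, P7y: tCAGTAAAtgtttattggatg
The E90 read of miR-421 covers hairpin bases 19 to 37, whereas miR-421-5p covers bases 37 to 60, and the P30d read began 1 base before it and ended at the same base. At P7y the read began at base 41, within miR-421-5p, and carried the mismatch T3G (hairpin base first, counted from the read's 5′ end), with 6 copies. Likewise the E90 read of miR-545 covers bases 6 to 23, upstream of miR-545-5p at bases 25 to 45, and the P30d and P7y reads began at base 25. Counts on the 5p side of these hairpins therefore join reads of different places, and no ratio between libraries is given for them. They do enter the hairpin sums and the counts of called arms made without a filter.

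Ends of the leading arms were the same in all libraries for the miR-374 5p arms and differed for miR-545-3p. The representative read of miR-374a-5p, 1 base shorter at the 3′ end than the miRBase arm, held 70.9%, 89.3% and 69.2% of the arm's reads, and that of miR-374b-5p, shortened likewise, 48.3%, 74.2% and 44.7%. At the 5′ end, the representative read of miR-545-3p began 1 base after the miRBase arm in all libraries, which moves bases 2 to 8 to CAACAAA. The last bases of miR-545-3p and miR-421-3p reads show where P30d stood apart.
miR-545-3p, E90 and P7y: tCAACAAAcatttattgtgtgcct
miR-545-3p, P30d: tCAACAAAcatttattgtgtgt
miR-421-3p, E90 and P7y: aTCAACAGacattaattgggcgc
miR-421-3p, P30d: aTCAACAGacattaattgggcgt
Both P30d reads ended in a T that the hairpin lacks, C22T in miR-545-3p and C23T in miR-421-3p (hairpin base first, counted from the read's 5′ end). Reads with a mismatch made up 53.8% of miR-421-3p at P30d (45.7 to 61.8), against 15.6% at E90 and 33.6% at P7y (25.1 to 43.0). For miR-545-3p they made up 46.4% at P30d (42.3 to 50.6), against 15.3% at E90 and 23.5% at P7y (10.7 to 41.2). Among arms of pig hairpins with at least 50 reads the medians were 12.2%, 13.8% and 16.4%, and a representative read that departs from the hairpin only by a final T was seen in 14 of 225 arms at P30d, 6 of 236 at E90 and 11 of 218 at P7y. The tables do not say which base the other mismatched reads change.

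**Figure D4:**
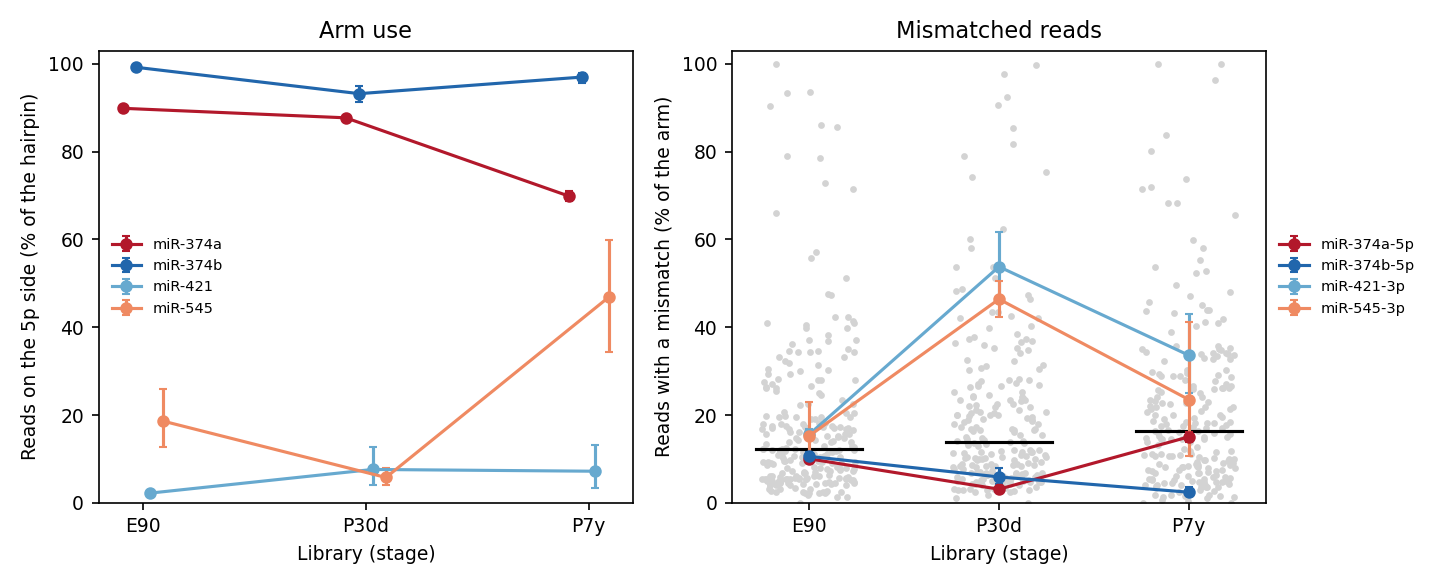
Left, reads on the 5p side as a percentage of each hairpin's reads (y axis) by library (x axis); right, reads with a mismatch as a percentage of each leading arm's reads, with grey points for all arms with at least 50 reads and black lines for their medians. Bars are exact 95% intervals. miR-374a lies at 69.9% on the 5p side at P7y, and miR-421-3p and miR-545-3p reach 53.8% and 46.4% mismatched reads at P30d.

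Other miRNAs of chromosome X, taken by position and without the members, numbered 52 with a read and 23 past the filter. Across birth 4 of the 23 were higher (17.4%) and 11 lower (47.8%), against 33.4% and 35.3% of all 326 miRNAs, and the median log2 ratio was -0.97 against -0.11. The lowest was miR-532-5p at -5.31 and the highest miR-505-5p at 6.61 (5.37 to 8.25). miR-505-5p passed the filter only through its P30d level (0.54, 53.0 and 0.40 CPM), so nothing is read from its ratio. From P30d to P7y 2 were higher (8.70%) and 13 lower (56.5%) under CPM, against 13.5% and 55.8% of all miRNAs, with a median of -1.30 against -1.36. Under TMM 5 were higher (21.7%) and 6 lower (26.1%), against 27.6% and 33.4%. From E90 to P7y 2 were higher and 17 lower (73.9%) under CPM, against 12.0% and 50.6%, with a median of -2.71 against -1.06. Under TMM 2 were higher and 13 lower (56.5%), against 27.6% and 33.4%. Both arms of some hairpins are among the 23, so these are not independent counts. Nothing particular to the chromosome is read from them.

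The miRNAs whose profile over the 3 libraries lay nearest to each leading arm were taken from 174 with a mean of 100 CPM or more, by Euclidean distance of centred log2 CPM. Nearest to miR-374a-5p were miR-192-3p (0.11), miR-199a-5p (0.13) and miR-5105-5p (0.26). For miR-545-3p they were miR-2887-5p (0.18), miR-1307-5p (0.40) and miR-122-3p (0.42). The nearest to miR-374b-5p were miR-221-5p (0.17), which also lies on X, miR-423-5p (0.26) and miR-107-3p (0.31). Beside miR-421-3p were miR-17-5p (0.41), miR-362-5p of the X chromosome (0.46) and miR-136-3p (0.58). With 3 libraries many miRNAs can share such a profile.

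Markers of other cell types also differed between libraries. The leukocyte list (miR-142, miR-146a, miR-150, miR-155 and miR-223, 8 arms) summed to 0.104%, 0.460% and 0.112% of miRNA reads, highest in the library where miR-374a and miR-545 were highest; 3 of its 6 arms past the filter were higher and 1 lower from E90 to P30d, where 33.4% of all miRNAs were higher and 35.3% lower, and miR-155-3p had no read at P30d. Of the erythroid list (miR-144, miR-451 and miR-486, 6 arms, none at 0) the sums were 0.724%, 0.303% and 0.182%, in the order of miR-374b and miR-421, with 3 of 4 arms lower and 0 higher from E90 to P30d. The hepatocyte list summed to 34.2%, 38.2% and 30.4%, also highest at P30d. Of its 10 arms past the filter, 4 were higher and 0 lower from E90 to P30d. The mesenchymal list summed to 6.01%, 6.79% and 11.5%, with 5 of 9 arms higher and 1 lower in that comparison. The endothelial list summed to 1.82%, 1.47% and 1.42%, also in the order of miR-374b and miR-421, with 1 of 5 arms higher and 1 lower. The biliary and epithelial list summed to 0.205%, 0.0464% and 0.0930%, with 2 of 5 arms higher and 3 lower. From P30d to P7y, arms higher and lower under CPM were 1 and 6 (hepatocyte), 2 and 5 (mesenchymal) and 0 and 3 (leukocyte). They were 0 and 1 (erythroid), 0 and 2 (endothelial) and 1 and 3 (biliary and epithelial), against 13.5% and 55.8% of all miRNAs. The mesenchymal sum was thus higher at P7y while more of its arms were lower than higher. The part of these cell types in the members' values was not tested.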

How the data were processed

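Size-selected small RNA was sequenced on a Genome Analyzer II, per the labels. Each library has 1 table by the authors, in which a line is an arm of a hairpin. Per the file headers, reads were mapped to miRBase hairpins of pig and other mammals, placed on genome and expressed sequence tags, and sorted into groups; the last group, predicted hairpins, was left out of totals. The deposited read numbers of an arm are expected counts, as reads shared by hairpins are split between them. Copies of the representative read, and reads per hairpin, are deposited counts. Sscrofa10.2 is the build in the submitters' processing notes. Not given in the sources used here are the aligner, trimming and miRBase release.

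Expected counts were summed per name and arm and rounded. Of 1007 names, 15 were merged into others where both had over 50% of their reads in 1 shared representative read of at least 18 nt. CPM used named reads, which were 96.0% to 99.9% of each table. Ratios have exact conditional binomial intervals, balances exact conditional odds-ratio intervals, and levels exact Poisson intervals. A count of 0 allowed 0.302 to 0.828 CPM (3 reads). A miRNA was placed on chromosome X where over 90% of its reads lay there in the tables. Members and lists were chosen with earlier results of these data known. Named miRNAs were all member arms, the 3 nearest profiles per leading arm, the extremes of the X list and miR-122-5p; outside this rule, the leukocyte and erythroid markers are named with their lists, and miR-155-3p because it had no read in 1 library. The alternatives were edgeR 4.0.16 TMM, DESeq2 1.42.0 size factors, other totals, filters, thresholds and ways of counting reads. The ratio script was tested on simulated data. Python 3.11.15, SciPy 1.17.1, Biopython 1.88 and R 4.3.3 were used.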

Additional observations from a re-analysis of the deposited data

How the results depend on the processing

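No paired analysis was possible because each stage has 1 library, and for the same reason no library could be left out. Of the alternative values of the log2 ratios of the 5 arms past the filter, 93 kept direction and call, 9 kept direction but lost the call and 3 changed sign. The sign changes were miR-374b-5p from P30d to P7y, at 0.055 under TMM, and miR-374a-5p from E90 to P7y, at 0.46 under TMM and 0.49 with DESeq2 size factors, which follow from the shift of the median of all miRNAs. All values from E90 to P30d kept direction, and the 1 call lost there was miR-374b-5p with representative reads alone.

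From E90 to P30d, dropping the filter gave 5 arms higher instead of 3 and 3 lower instead of 2. A 4-fold rule left 1 lower instead of 2. From P30d to P7y, 5 lower became 3 under TMM, 3 with DESeq2 size factors and 3 at 4-fold, and 8 without a filter. From E90 to P7y the 4-fold rule left 0 higher instead of 1 and 2 lower instead of 3. TMM and DESeq2 size factors also left 2 lower, and 4 were lower without a filter. The shares of all miRNAs called at 4-fold, without a filter or with DESeq2 size factors are not given here. Nothing is read from these counts. Those without a filter take in the 5p sides of miR-421 and miR-545, which join reads of different places.

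The balance of miR-374b over miR-421 from P30d to P7y was 0.81, and -0.39 with representative reads alone; from E90 to P30d it was 1.98, 2.81 without mismatched reads and 3.12 with representative reads. The balance of miR-374a over miR-545 moved between ways of counting. Across birth it was 0.78 without mismatched reads and -0.19 with the more abundant arm only. From P30d to P7y it was 0.39 and passed 0 in its interval without mismatched reads, and -0.40 with representative reads. With the more abundant arm only it was 1.53. From E90 to P7y it was 1.08, 1.17 without mismatched reads, 1.33 with the more abundant arm only and 0.027 with representative reads. The cause was not tested. The representative reads of miR-421-3p and miR-545-3p at P30d differ in sequence from those of the other libraries, which bears only on values that involve P30d. At E90 and P7y the representative read of miR-545-3p was the same. On the 5p side of miR-545 it had 8 copies at hairpin bases 6 to 23 at E90, and 24 copies at bases 25 to 45 at P7y. The 12 alternative values of the miR-374a and miR-374b arm balances kept direction and call. Depth limits miR-545 most, with 64 reads at P7y.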
